A study of Mus musculus with 6 samples.

Results

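The genes described here are 47 mouse genes of the interferon response and of antigen presentation, chosen by name. They comprise 31 antiviral genes, 7 genes for interferon-inducible GTPases and 9 genes of the major histocompatibility complex (MHC) class I pathway. Through RefSeq accessions, 46 of the 47 matched at least 1 of 69 probes, and 45 passed the filter on dim probes, of 21479 units (13538 named genes and transcripts without a symbol) tested on the whole array. Mx2, an antiviral GTPase, matched no probe, and Iigp1, an immunity-related GTPase that acts against intracellular parasites, never stood well above background. Of the 45 members tested, 43 were well above background on all 6 arrays. Gbp2 and Gbp7, which encode guanylate-binding proteins, were well above background on 3 PNP arrays and 2 untreated arrays, so they passed the filter through the PNP arrays.

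RNA came from TM4, a mouse somatic cell line of the testis that serves as a model of Sertoli cells, after 24 h with 10 µM 4-nitrophenol (PNP), a phenol in diesel exhaust, or after 24 h without it (0 µM, untreated). Each group held 3 samples, each on its own single-colour array, and their number limits the precision. No label says that replicates were grown apart. A p-value here sets a difference against the scatter of these samples, and that scatter may be purely technical. The 3 slides carried a pair of arrays each, and an array's place on its slide is called its position: the second position carried PNP replicates 1 and 3 and untreated replicate 2, and the first carried PNP replicate 2 and untreated replicates 1 and 3.

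Interferons bind receptors at the cell surface, and the receptors' JAK kinases activate STAT transcription factors. Type I interferons act through a complex with Stat2 and Irf9 that binds the interferon-stimulated response element (ISRE), and interferon gamma through factors that bind the gamma-activated site (GAS). The induced genes encode sensors of viral RNA, proteins that block viral replication, GTPases that attack the vacuoles of intracellular microbes, and the machinery that cuts peptides and loads them onto MHC class I. Sertoli cells are known to take part in the antiviral defence of the seminiferous tubule.

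The promoters of members were searched for both elements, because members that share a binding site could move together. In the 250 bases before each start, on both strands, the ISRE core (GAAANNGAA) was present in 17 of the 38 members for which RefSeq promoters (build GRCm38.p6) were at hand, or 44.74%, against 8.181% of the 27025 genes of the same table and 7.328% of the 10753 named genes tested. By class, it was present for 10 of 24 antiviral genes, 6 of 6 GTPase genes and 1 of 8 antigen presentation genes, B2m. The GAS letters (TTCNNNGAA) were present for 10 of the 38 members, or 26.32%, against 8.13% of all genes, and 1 of the 27 ISRE cores in member windows overlapped a GAS. The stretches below, 5′ to 3′ on the strand of the gene and with the ISRE core of either strand in capitals, belong to an effector family, a sensor and the GTPase family, whose values follow. Ifit1 and Ifit3 hold 3 cores each in the window, and the stretches of Igtp and Irgm2 differ at 2 bases. A match is a description of the letters, not of binding.
Ifit1 (chr19:34640779-34640838, plus strand): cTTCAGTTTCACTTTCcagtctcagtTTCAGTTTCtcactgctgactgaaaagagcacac
Ifit3 (chr19:34583401-34583460, plus strand): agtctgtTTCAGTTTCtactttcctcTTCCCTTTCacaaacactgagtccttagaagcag
Ifih1 (chr2:62646334-62646393, minus strand): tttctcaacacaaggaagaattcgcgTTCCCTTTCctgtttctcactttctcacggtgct
Gbp7 (chr3:142530258-142530317, plus strand): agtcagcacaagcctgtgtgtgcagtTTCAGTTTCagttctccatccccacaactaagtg
Igtp (chr11:58199496-58199555, plus strand): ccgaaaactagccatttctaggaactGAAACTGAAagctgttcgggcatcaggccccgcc
Irgm2 (chr11:58214887-58214946, plus strand): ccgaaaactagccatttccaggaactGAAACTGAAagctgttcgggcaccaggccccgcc

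All levels below are log2 processed signals relative to the array's 75th percentile, averaged over the spots of a probe, and a gene is represented by its brightest probe. Taken against each gene's own mean over the 6 arrays, the 43 members above background on all arrays had a median deviation of 0.087, -0.12 and 0.21 on PNP arrays 1 to 3, against -0.051, 0.18 and -0.31 on untreated arrays 1 to 3. Positive medians stood on the 3 arrays of the second position and negative ones on the 3 arrays of the first, in either group. The number of these members above their own mean was 28, 14 and 32 of 43 on the PNP arrays, against 16, 28 and 5 on the untreated arrays. Among the 9 antigen presentation genes the numbers were 4, 1 and 8 on the PNP arrays, against 5, 7 and 1 on the untreated arrays. Untreated array 3 and PNP array 2, both at the first position, stood lowest in these counts.

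With PNP against untreated, no member passed the test across all genes. In limma, 0 of the 45 members had an adjusted p under 0.05, as did 0 of the 21479 units (0% in either direction), and the smallest adjusted p was 0.288 among the members and 0.107 over the array. At an unadjusted p under 0.05, 6 members were higher (6.86% of all units and 3.64% of named genes) and 0 lower (3.07% and 2.9%). Gbp7, which passed the filter through the PNP arrays, is among the 6. With the filter set to all 6 arrays, 5 of 43 members were higher, beside 1078 of 19365 units. The sign of the difference was positive for 28 members and negative for 17, where 44.8% of all units and 37.8% of named genes were positive, and across other scalings 24 to 35 members were positive. PNP arrays lay wholly above untreated arrays for 7 members, Gbp7 among them (7.6% of all units), and wholly below for 2 (7.83% of all units). The median log2 difference of the 45 was 0.14, against -0.042 over all units, and with position as a block it was 0.021, against -0.065 over all units. That fit had 23 positive members (42.9% of all units), and at an unadjusted p under 0.05 it had 6 higher (8.36%), again with Gbp7, and 1 lower (5.33%). Median centring moved the median of all units to -0.15 and that of the members to 0.039, and taking the percentile over detected probes moved them to 0.034 and 0.22. Within the first position the members' median was 0.032, against -0.037 over all units, and within the second -0.031, against -0.10. PNP replicate 2 was the only PNP array of the first position, and untreated replicate 2 the only untreated array of the second. Differences within a position, here and for single genes below, therefore lack replicates on one side.

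The classes did not move alike in these medians, though no difference between classes was tested. Antiviral genes had a median log2 difference of 0.18 with 22 of 30 positive, GTPase genes -0.013 (0.062 with the percentile over detected probes) with 3 of 6, and antigen presentation genes -0.13 with 3 of 9. With position as a block the medians were 0.12, -0.090 and -0.31, with 19, 2 and 2 positive. Across other scalings the antiviral genes had 20 to 27 positive, the GTPase genes 2 to 4 and the antigen presentation genes 2 to 4. The antigen presentation median turned positive when single arrays were left out, at 0.18 with 6 of 9 positive without untreated replicate 2 and at 0.11 with 6 of 9 without PNP replicate 2, and at 0.19 with 7 of 9 with slide as a fixed block. Under the same settings the antiviral medians were 0.37, 0.31 and 0.39. The slide block takes the treatment difference from the only slide with both groups, as PNP replicate 1 minus untreated replicate 3. That PNP array stood at the second position and that untreated array at the first, so treatment and position cannot be told apart there. The GTPase median turned positive without untreated replicate 1 or 2 and without PNP replicate 2 or 3, up to 0.22. Gbp2 and Gbp7, which passed the filter through the PNP arrays, are among the GTPase genes in these counts and medians. With the filter set to all 6 arrays, the GTPase median was -0.092, with 1 of 4 positive.

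**Figure D1:**
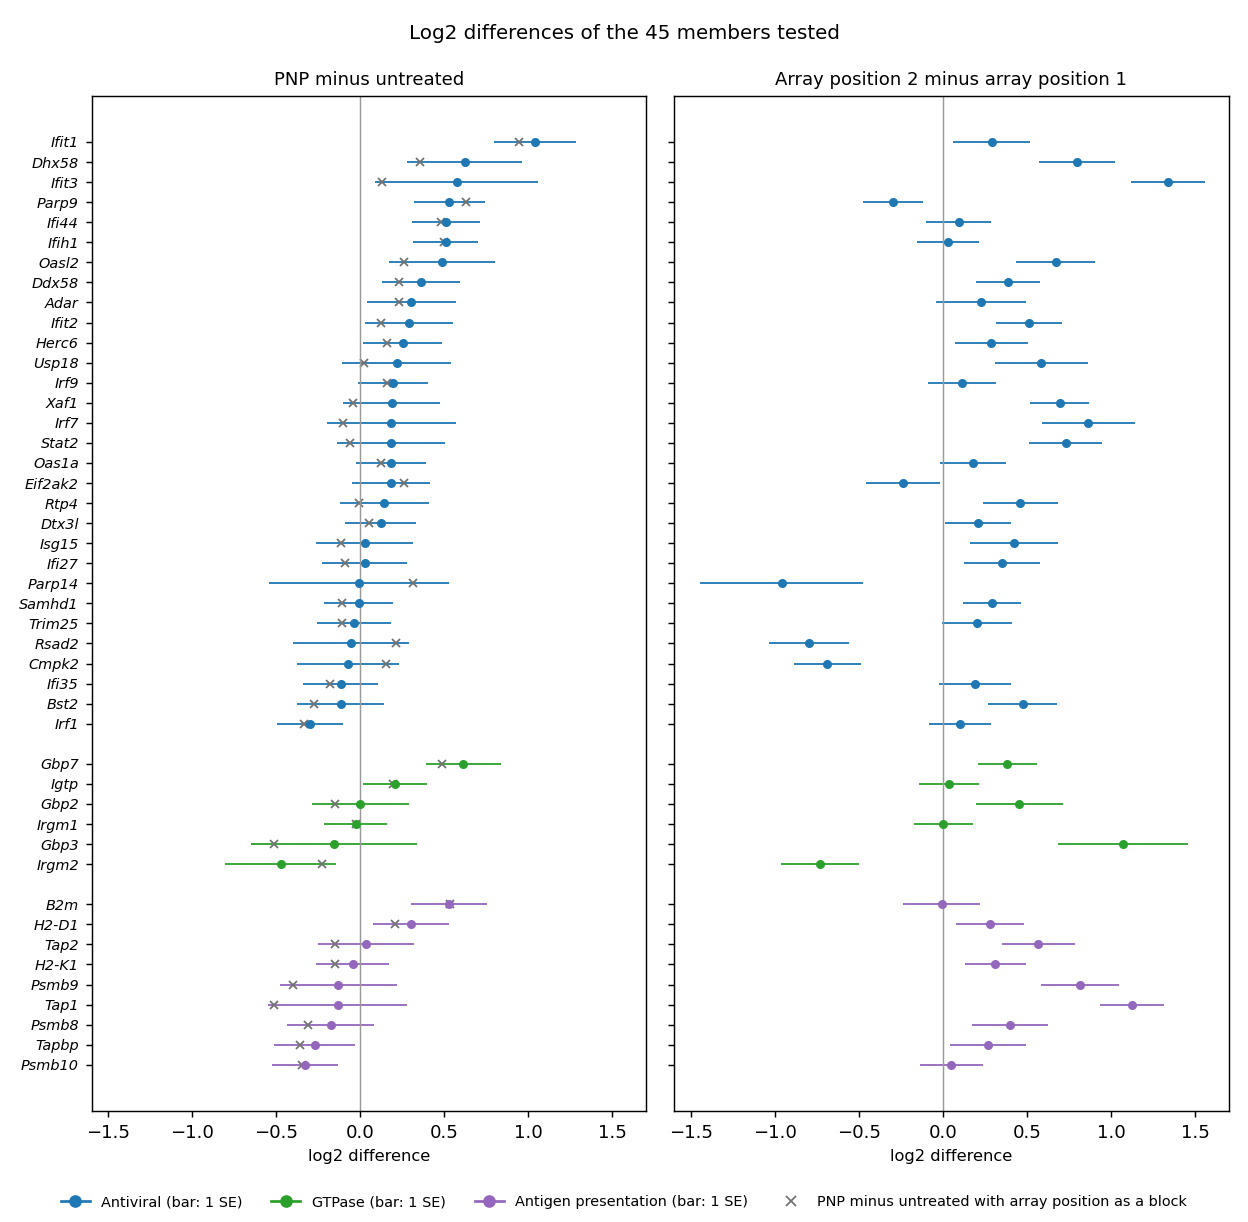
Log2 differences of the 45 members tested (points, bars 1 SE, limma), PNP minus untreated on the left with crosses for the fit with position as a block, and second minus first array position on the right. Genes run down by class and by the left-hand difference: 28 of 45 points lie right of 0 on the left and 38 of 45 on the right, where Ifit3 stands farthest right at 1.34.

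Among the transcription factors, Irf1, which is induced by interferon gamma and binds ISRE-like sites, had levels of 3.07, 3.06 and 3.16 on the PNP arrays, against 3.50, 3.50 and 3.19 on the untreated arrays. Every PNP array was below every untreated array, with a log2 difference of -0.30 ± 0.20 (SE, limma adjusted p = 0.632) and of -0.34 with position as a block. Its other probe gave -0.40. Irf7, the factor that amplifies interferon production, had 4.54, 3.99 and 4.81 on the PNP arrays, against 4.35, 4.96 and 3.47 on the untreated arrays. The groups overlapped, and within each group the arrays of the second position were the higher ones. Stat2, the subunit that carries the transactivation domain of the ISRE-binding complex, had 3.61, 3.00 and 3.87 on the PNP arrays, against 3.34, 3.79 and 2.80 on the untreated arrays, the same order of positions. Irf9, the DNA-binding subunit of that complex, had 3.19, 3.07 and 3.52 on the PNP arrays, against 3.19, 3.02 and 2.98 on the untreated arrays, and its groups overlapped too. The log2 differences of Irf7, Stat2 and Irf9 were 0.18, 0.18 and 0.19, and -0.10, -0.061 and 0.16 with position as a block.

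The 3 sensors of viral RNA had positive differences of 0.36 to 0.62 that kept their sign under every scaling tried, and of 0.23 to 0.50 with position as a block. Ifih1 (MDA5), the sensor of long double-stranded RNA, had -0.99, -0.94 and -0.94 on the PNP arrays, against -1.34, -1.41 and -1.64 on the untreated arrays. All PNP arrays were above all untreated arrays, the difference was 0.51 ± 0.19 (SE, limma adjusted p = 0.448), and within the first and the second position it was 0.55 and 0.45. Ddx58 (RIG-I), which detects RNA with a 5′ triphosphate, had 4.21, 3.97 and 4.20 on the PNP arrays, against 3.73, 4.12 and 3.44 on the untreated arrays. Untreated array 2 overlapped the PNP arrays, and the difference was 0.36 ± 0.23 (SE, limma adjusted p = 0.63), with 0.045 and 0.34 from its other 2 tested probes. Dhx58 (LGP2), a regulator of the other sensors, had 0.70, -0.58 and 0.52 on the PNP arrays, against -0.56, -0.13 and -0.52 on the untreated arrays. PNP array 2 was the lowest of all 6, and the difference of 0.62 was -0.036 within the first position and 0.74 within the second.

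The 16 effectors tested had a median difference of 0.18 with 11 positive. Ifit1, which binds viral RNA that lacks cap methylation and blocks its translation, had 0.84, 0.26 and 0.78 on the PNP arrays, against -0.67, -0.40 and -0.16 on the untreated arrays. All PNP arrays lay above all untreated arrays. The difference of 1.04 ± 0.24 on the log2 scale (SE), a fold of 2.05, was the largest of the 45 and had the members' smallest adjusted p in limma, 0.288, with 0.67 within the first position and 1.21 within the second. Its adjusted p ran from 0.023 to 0.913 over the alternatives, and the only one under 0.05 came with array weights, which gave untreated array 1 a weight of 9.11 and the other arrays weights under 1. Ifi44, an interferon-induced gene whose protein restrains virus growth, had 1.90, 1.74 and 1.52 on the PNP arrays, against 1.13, 1.36 and 1.15 on the untreated arrays, also without overlap. Its difference was 0.51 ± 0.20 (SE, limma adjusted p = 0.466), with 0.60 and 0.36 within the first and the second position.

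Ifit3, of the same family as Ifit1, had 2.52, 0.72 and 2.16 on the PNP arrays, against 0.74, 1.93 and 1.00 on the untreated arrays. The lowest of the 6 was a PNP array, at the first position, and the difference of 0.57 was 0.13 with position as a block. Rsad2 (viperin), which makes a chain-terminating nucleotide, had -0.30, 0.73 and -0.39 on the PNP arrays, against 0.53, -0.27 and -0.051 on the untreated arrays by its brighter probe. The groups overlapped, and the difference of -0.056 was 0.019 with the percentile taken over detected probes. Samhd1, which depletes nucleotides, had 3.29, 2.97 and 3.28 on the PNP arrays, against 3.16, 3.37 and 3.04 on the untreated arrays, and its difference of -0.010 turned positive under 4 of the 5 other scalings. Adar, the editor of adenosines in double-stranded RNA, had 2.25, 2.46 and 3.10 on the PNP arrays, against 2.38, 2.46 and 2.06 on the untreated arrays by its brighter probe. Its difference was 0.30, and -0.45 by its dimmer probe. The other 10 effectors tested, among them Bst2 (tetherin), Eif2ak2 (PKR) and Oas1a (a synthetase of the messenger that activates RNase L, which its probe may not tell from Oas1g), had differences from -0.12 to 0.48.

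Of the 7 members of the ubiquitin-like and ADP-ribosylation group, 5 were positive, with a median of 0.12. Parp9, which forms a complex with the ubiquitin ligase Dtx3l, had -0.071, 0.39 and -0.0032 on the PNP arrays, against -0.43, -0.53 and -0.31 on the untreated arrays. No PNP array reached down to an untreated one, and the difference was 0.53 ± 0.21 (SE, limma adjusted p = 0.468) and 0.63 with position as a block. Isg15, the ubiquitin-like protein that is joined to other proteins during the response, had 5.03, 5.08 and 5.46 on the PNP arrays, against 5.26, 5.62 and 4.61 on the untreated arrays, given here although it is outside the rule for named genes. The untreated arrays spanned the PNP arrays, and the difference of 0.025 turned negative with median centring. Parp14, an ADP-ribosyltransferase, had 0.14, -0.29 and -1.61 on the PNP arrays, against -0.37, -1.56 and 0.20 on the untreated arrays, a difference of -0.0078 ± 0.54 (SE) that was positive under 3 other scalings.

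**Figure D2:**
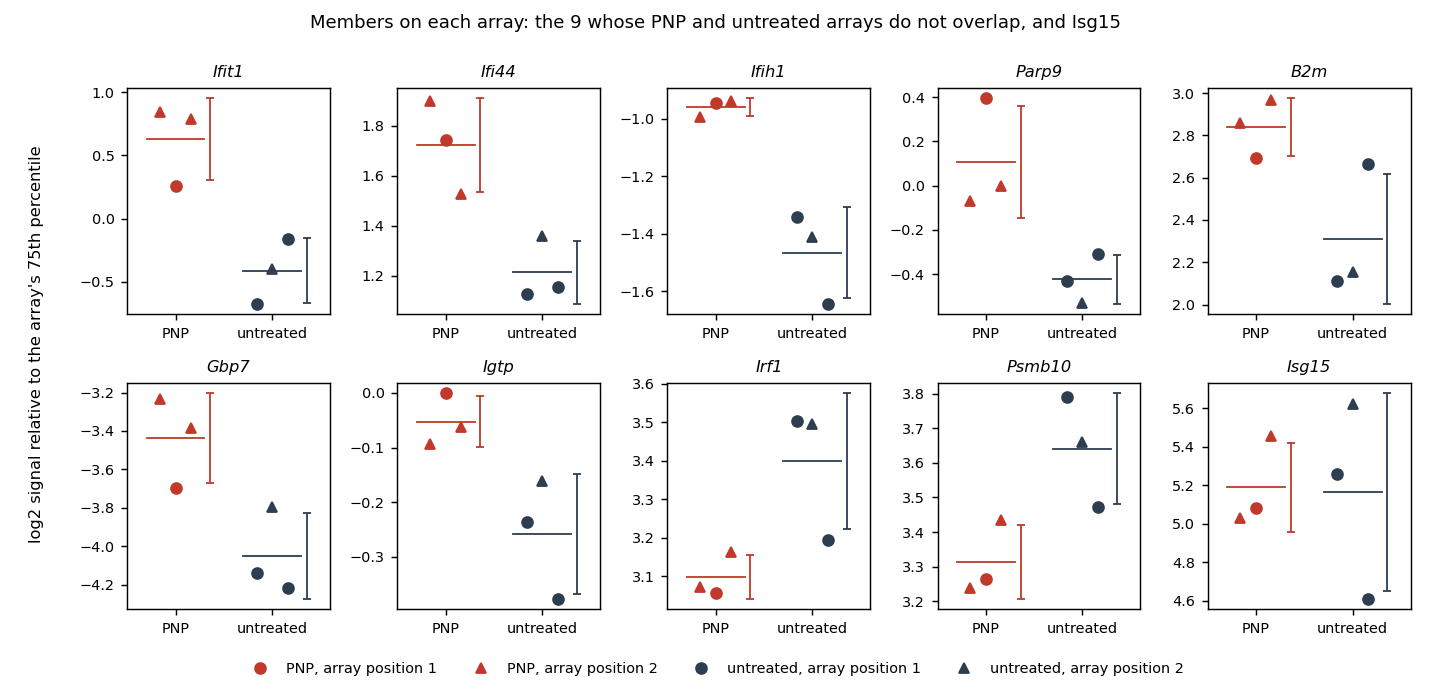
Level on each array (points; circles first position, triangles second), with the group mean (line) and SD (bar, n = 3), for the 9 members whose PNP and untreated arrays do not overlap, and for Isg15. The y axis is the log2 signal relative to the array's 75th percentile, with its own range in each panel. PNP lies above untreated for Ifit1, Ifi44, Ifih1, Parp9, B2m, Gbp7 and Igtp and below it for Irf1 and Psmb10.

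Among the GTPases, Gbp7 had -3.24, -3.70 and -3.39 on the PNP arrays, against -4.14, -3.80 and -4.22 on the untreated arrays. The groups did not overlap, and the difference was 0.61 ± 0.22 (SE, limma adjusted p = 0.421). Gbp7 passed the filter through the PNP arrays, so its place among the members without overlap rests on that. These are dim signals: with normexp background correction the difference was 0.099, and -0.0077 with position as a block besides. Igtp, an immunity-related GTPase, had -0.094, -0.0010 and -0.063 on the PNP arrays, against -0.24, -0.16 and -0.38 on the untreated arrays, again without overlap. Its difference was small, at 0.21 ± 0.19 (SE, limma adjusted p = 0.728). Irgm2, a regulatory member of the same family, had -1.28, -0.89 and -1.96 on the PNP arrays, against -0.55, -1.40 and -0.77 on the untreated arrays, a difference of -0.47 that was -0.23 with position as a block. Gbp3 had -1.51, -2.45 and -2.57 on the PNP arrays, against -2.43, -0.87 and -2.77 on the untreated arrays. Untreated array 2 was its highest array, and its difference was -0.16 ± 0.50 (SE). Gbp2 and Irgm1 had differences of 0.00023 and -0.027, and the sign of each turned under other scalings.

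Among the antigen presentation genes, the 3 immunoproteasome subunits, which change how peptides are cut, all had negative differences, of -0.33 to -0.13, that kept their sign under every scaling tried, and of -0.40 to -0.31 with position as a block. Psmb10 had 3.24, 3.26 and 3.43 on the PNP arrays, against 3.79, 3.66 and 3.47 on the untreated arrays. The PNP arrays lay below the untreated arrays, and the difference was -0.33 ± 0.20 (SE, limma adjusted p = 0.609). Psmb9 had 1.44, 0.93 and 1.79 on the PNP arrays, against 1.49, 2.14 and 0.91 on the untreated arrays, with overlapping groups and a difference of up to 0.18 when 1 array was left out.

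B2m, the light chain of MHC class I, had 2.86, 2.69 and 2.97 on the PNP arrays, against 2.11, 2.15 and 2.66 on the untreated arrays. PNP array 2 lay just above untreated array 3, the difference was 0.53 ± 0.23 (SE, limma adjusted p = 0.492), and it was 0.53 with position as a block. H2-D1, a class I heavy chain, had 0.78, 0.52 and 1.16 on the PNP arrays, against 0.46, 0.59 and 0.50 on the untreated arrays, a difference of 0.30 that was 0.032 within the first position and 0.38 within the second. H2-K1, the other heavy chain, had differences of -0.046 and 0.023 by its 2 probes, and the sign of the first turned under 3 other scalings. H2-D1 and H2-K1 are near-identical over much of their length, and a probe may detect either.

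Tap1 and Tap2 form the transporter that carries peptides into the endoplasmic reticulum. Tap1 had 2.07, 1.02 and 2.37 on the PNP arrays, against 1.73, 2.66 and 1.48 on the untreated arrays. Its difference was -0.14, and -0.51 with position as a block, while its other probe gave 0.22 and normexp, which takes that probe as the brightest, 0.29. Tap2 had 2.96, 2.77 and 3.45 on the PNP arrays, against 2.94, 3.50 and 2.65 on the untreated arrays, and its difference of 0.036 turned negative with median centring. Tapbp (tapasin), which bridges the transporter and class I, had 4.60, 4.63 and 5.06 on the PNP arrays, against 5.16, 5.26 and 4.70 on the untreated arrays, a difference of -0.27 ± 0.24 (SE, limma adjusted p = 0.719) with -0.26 by its other probe.

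More members differed between array positions than between PNP and untreated arrays, by calls, by unadjusted p and by arrays without overlap. The same was so over all units, of which 239 were called higher and 327 lower between positions, and 0 between PNP and untreated. The position fit held treatment as a term, and the reported treatment fit held no position term. In limma with treatment as a term, Ifit3 and Tap1 were higher at the second position than at the first, 2 of 45 members against 1.11% of all units, and 0 members were lower (1.52% of all units). At an unadjusted p under 0.05, 11 members were higher (11.1% of all units and 11.6% of named genes) and 3 lower (9.42% and 10.1%). The difference was positive for 38 of the 45, against 56.3% of all units and 55.4% of named genes, and for 34 to 39 across other scalings. The arrays of the second position lay wholly above those of the first for 15 members (11.5% of all units) and wholly below for 3 (10.9% of all units). The median was 0.29 over the members and 0.059 over all units, and 0.29, 0.21 and 0.31 over the antiviral, GTPase and antigen presentation genes. Within the PNP arrays the members' median was 0.24, against 0.33 within the untreated arrays. The second position held 2 of the 3 PNP arrays. Differences between PNP and untreated with position as a block are given above for the classes and some members. The plot of log2 differences by gene marks them for all 45. With that block the sign turned for Isg15 (-0.12), Tap2 (-0.15), Gbp2 (-0.15), Rsad2 (0.21) and Parp14 (0.31), among others. It held for members such as Ifit1 (0.94), Ifi44 (0.48), Adar (0.23), Samhd1 (-0.11), Tapbp (-0.36) and Gbp3 (-0.51).

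Each slide held an array at each position, so the same difference was taken within each slide. On slide 1 both arrays were untreated, on slide 2 the second array was PNP and the first untreated, and on slide 3 both were PNP. The second array was higher than the first on all 3 slides for 29 of the 45 members, against 30% of all units, and lower on all 3 for 4, against 21.9%. The members' medians were 0.23, 0.33 and 0.31 on slides 1 to 3. By class, 20 of 30 antiviral genes, 7 of 9 antigen presentation genes and 2 of 6 GTPase genes were higher on all 3 slides. The 4 that were lower on all 3 were Rsad2 (by its brighter probe), Cmpk2, Parp14 and Irgm2.

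**Figure D3:**
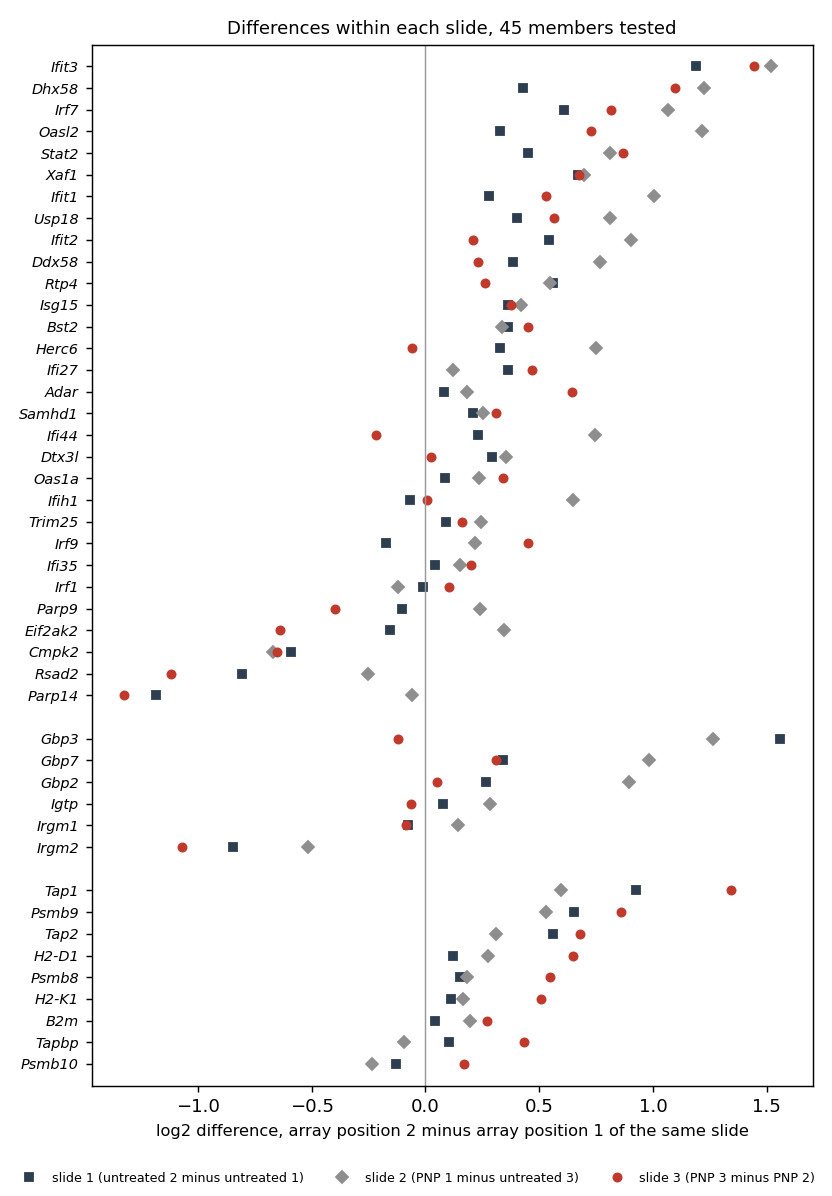
Log2 difference between the arrays of each slide, second minus first position, for the 45 members tested (squares slide 1, both untreated; diamonds slide 2, PNP minus untreated; circles slide 3, both PNP). For 29 members all 3 symbols lie right of 0 and for 4 all lie left of it, and Ifit3 has the 3 symbols at 1.19 to 1.52.

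Ifit3 gave the largest positive difference between positions. Its levels were 2.52, 2.16 and 1.93 on the arrays of the second position, against 0.72, 0.74 and 1.00 on those of the first, with a difference of 1.34 ± 0.22 (SE, limma adjusted p = 0.033). The within-slide differences were 1.19, 1.52 and 1.44. Ifit3b, a near-identical neighbour outside the 47, differed by 1.02 ± 0.18 (SE, limma adjusted p = 0.038), and probes may not separate the pair. Ifit2 differed by 0.51, Ifit1 by 0.29.

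Tap1 had 2.07, 2.37 and 2.66 on the arrays of the second position, against 1.02, 1.73 and 1.48 on those of the first. The difference was 1.13 ± 0.19 (SE, limma adjusted p = 0.0355), its other probe gave 0.91, and the slides gave 0.93, 0.60 and 1.35. Leaving out 1 array at a time, neither Ifit3 nor Tap1 passed without untreated replicate 1, 2 or 3 or without PNP replicate 2 or 3, and both passed without PNP replicate 1. The differences were then 1.06 to 1.62 for Ifit3 and 1.05 to 1.20 for Tap1, and the highest limma adjusted p-values 0.334 and 0.357. With no filter on dim probes the adjusted p-values were 0.248 and 0.262. Without untreated replicate 2, position was estimated within the PNP arrays only, and without PNP replicate 2 within the untreated arrays only.

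Several other members had all second-position arrays above all first-position arrays without passing the test. Irf7 differed by 0.87 (limma adjusted p = 0.138) and by 1.04 through its other probe. Stat2 differed by 0.73 and 0.74 through its 2 probes (limma adjusted p = 0.117), and Xaf1, a promoter of cell death, by 0.70 (limma adjusted p = 0.083), and by 0.085 through its other probe. Dhx58 differed by 0.80, Oasl2, a synthetase-like protein that supports RIG-I, by 0.67 and Tap2 by 0.57. Psmb9 differed by 0.81 (limma adjusted p = 0.107), with PNP array 1 just below untreated array 1. Gbp3 differed by 1.07 (limma adjusted p = 0.177), but its positions overlapped, and on slide 3 its difference was -0.12. In the fit with slide as a fixed block, which takes the position difference from slides 1 and 3, 6 members were higher (5.94% of all units), namely Ifit3, Tap1, Psmb9, Dhx58, Irf7 and Xaf1, and 3 lower (7.2% of all units), namely Parp14, Rsad2 and Irgm2. Of the 9 members whose PNP and untreated arrays did not overlap, B2m differed between positions by -0.0077, Ifih1 by 0.030, Igtp by 0.034, Psmb10 by 0.051 and Irf1 by 0.10, whose signs turned under at least 1 other scaling. In the rest of the 9 the differences were 0.093 for Ifi44, 0.29 for Ifit1, 0.38 for Gbp7 and -0.30 for Parp9. Irgm1 had the smallest difference of the 45, at 0.0032, which turned negative under 4 other scalings.

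**Figure D4:**
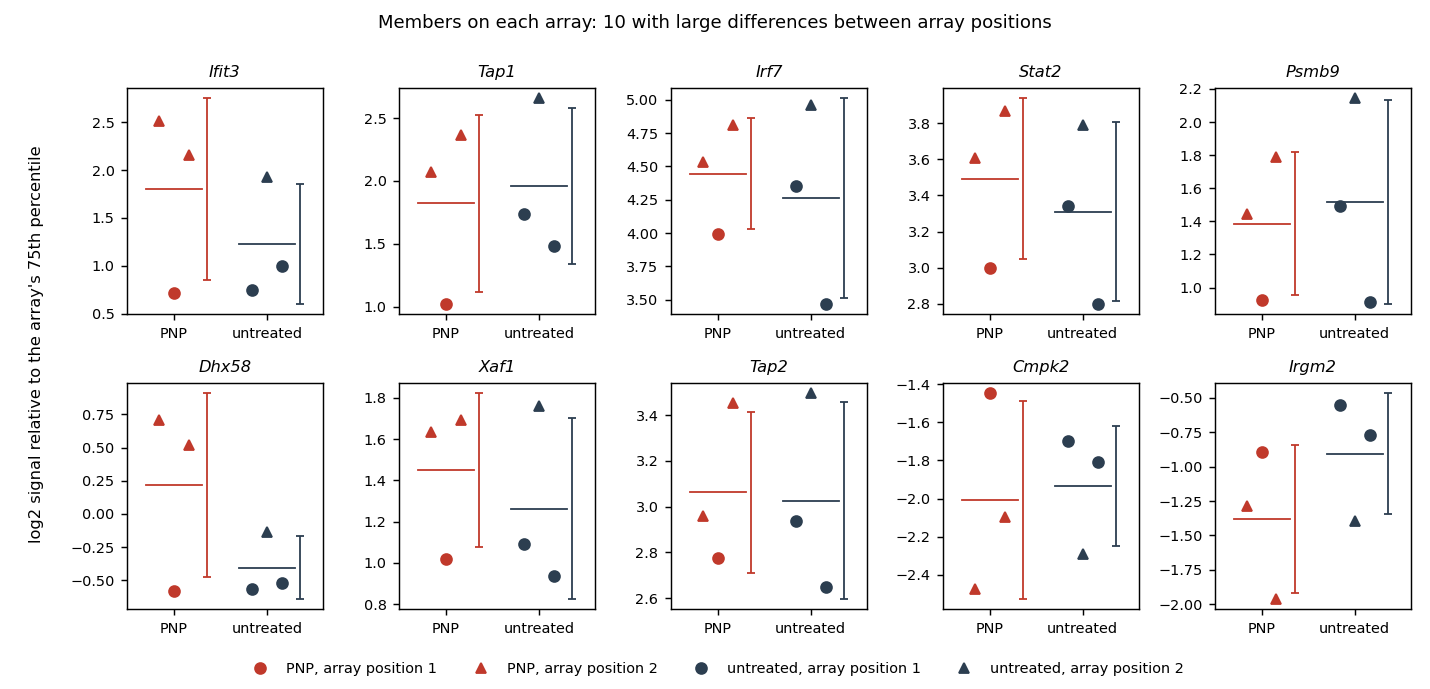
Level on each array (circles first position, triangles second), with the group mean (line) and SD (bar, n = 3), for 10 members with large differences between positions. The y axis is the log2 signal relative to the array's 75th percentile, with its own range in each panel. Triangles stand above circles within each group in all panels but those of Cmpk2 and Irgm2, where they stand below. Among members not shown, Gbp3 (1.07) and Parp14 (-0.96) differed by more than most of the 10. In both, the second-position PNP arrays lie on either side of the first-position PNP array.

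Of the 17 members with several tested probes, 4 had probes that differed in sign by more than 0.5 between positions. Rsad2 was the widest: its brighter probe differed by -0.80 ± 0.24 and its dimmer by 1.71 ± 0.19 (SE). The dimmer probe read -0.40, -0.26 and 0.14 on the arrays of the second position, against -1.86, -1.66 and -1.83 on those of the first, and with every probe as its own unit it passed the test (limma adjusted p = 0.0138). The dimmer probe of Adar read -1.39, -1.29 and -1.61 on the second position, against -0.31, -0.17 and 0.13 on the first, a difference of -1.31 ± 0.21 (SE, limma adjusted p = 0.0265), while its brighter probe differed by 0.23. Parp14 differed by -0.96 ± 0.48 and 0.20 ± 0.38 (SE) through its 2 probes, with -1.18, -0.059 and -1.32 on slides 1 to 3 by the brighter one. Samhd1 differed by -0.21 to 0.29 through 3 probes. Between PNP and untreated, Adar was the only one whose probes differed in sign by more than 0.5. Which probe of a pair measures the gene's main transcript was not tested.

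**Figure D5:**
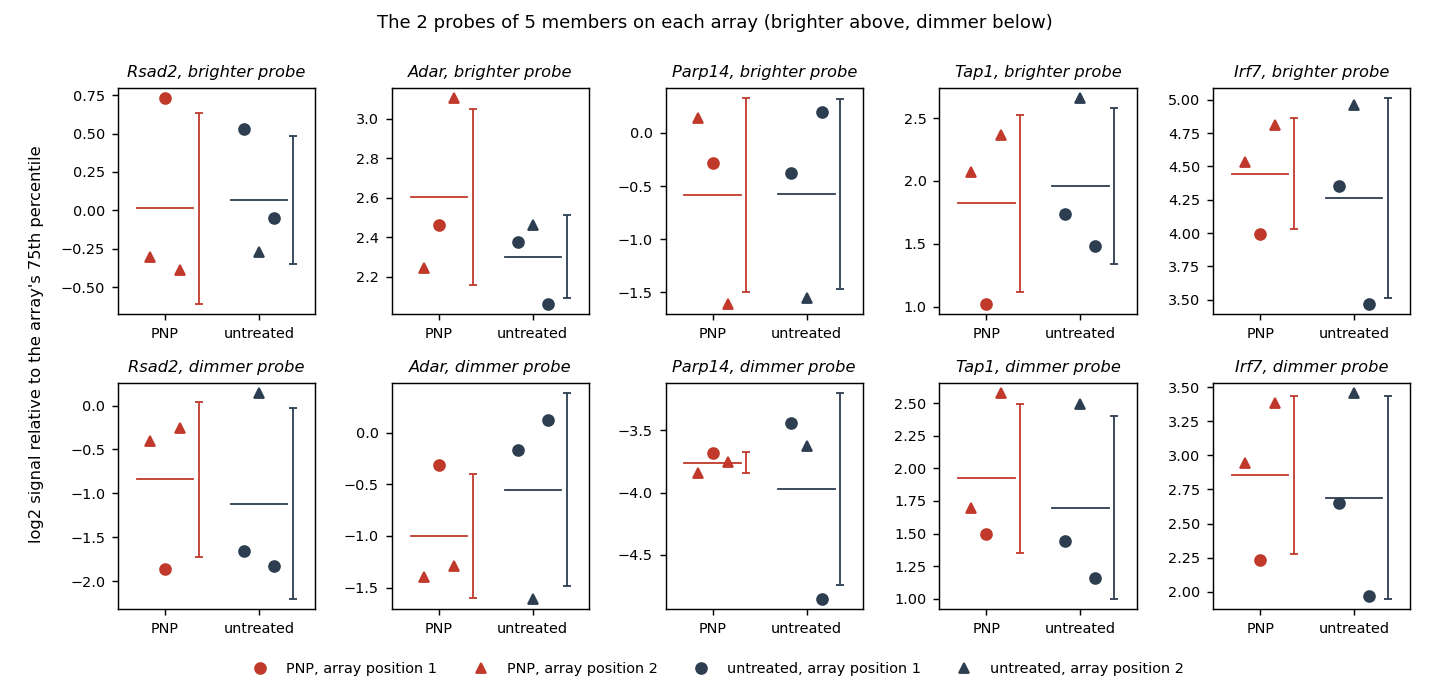
Level on each array through the 2 tested probes of 5 members, the brighter probe in the upper row and the dimmer in the lower (circles first position, triangles second, line and bar group mean and SD, n = 3). The y axis is the log2 signal relative to the array's 75th percentile, with its own range in each panel. For Rsad2 the triangles lie low in the upper panel, from -0.39 to -0.27, and high in the lower one, from -0.40 to 0.14, while for Tap1 and Irf7 the triangles of each group lie above its circles through both probes.

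Outside the 47, 105 further genes of the same pathways were listed, of which 97 had a probe and 73 were tested. With PNP against untreated, 31 were positive and 42 negative (24 to 36 positive across other scalings), and 0 passed limma's test. At an unadjusted p under 0.05, 5 (6.85%) were higher and 0 lower, where 6.86% of all units and 3.64% of named genes were higher. The 5 were Ifitm3, which blocks viral entry, at 0.59, the class I gene H2-Q4 at 0.54, the synthetase Oas2 at 0.50, Phf11d at 0.89 and the helicase Ddx60 at 1.35. Ddx60 was well above background on 3 PNP arrays and 1 untreated array, so it passed the filter through the PNP arrays and its place among the 5 rests on that. Next came Ifngr2, a chain of the interferon gamma receptor, at -0.46. Between positions 44 were positive (56.3% of all units), 20 were higher (11.1% of all units) and 7 lower (9.42% of all units) at an unadjusted p under 0.05, and Ifit3b alone passed.

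Most ligands were dim. Ifna1, Ifna4, Ifnk and Ifne never stood well above background, Ifnb1, Ifna2 and Ifna5 were so on some, Ifnl2 matched no probe, and Ifng and Ifnl3 were tested, with differences of 0.76 and -0.022 between PNP and untreated. Ifng too passed the filter through the PNP arrays, being well above background on 3 of them and on 2 untreated arrays. The Ifng difference of 0.76 ± 0.53 (SE, limma adjusted p = 0.659) was 0.31 with position as a block. Its second-position arrays all lay above its first-position arrays, with a difference of 1.33 ± 0.35 (SE). Of 9 receptor chains and kinases, 8 were tested, Ifnlr1 being dim, and 7 of the 8 had negative differences in this scaling, from -0.53 for Jak1 to -0.12 for Tyk2. Jak2 was the exception at 0.096. Of 12 upstream signalling genes tested, 11 were negative in the same scaling, with a median of -0.26. Negative differences were the more frequent ones over the array as well, where 37.8% of named genes were positive.

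No spot was saturated, and 47.9% to 57.9% of an array's 56605 probes passed the scanner software's background test. Of 17 Sertoli cell markers, 12, among them Sox9, Wt1 and Gata4, were above background on all 6 arrays, while Amh, Cldn11 and Fshr were on none. Peritubular myoid markers were above background for 5 of 5 genes, germ cell markers for 1 of 10, and Leydig and endothelial markers for 0 of 7 and 0 of 5. Of 11 macrophage markers, 4 (Cd68, Csf1r, Cd14 and Itgam) were above background on all arrays, and Ptprc, Adgre1, Tyrobp, Fcgr1, Cd163 and Mrc1 on none. Their summed signal, in units of the array's 75th percentile, was 16.9 to 20.6 on PNP arrays, against 19.4 to 23.7 on untreated arrays, and 18.6 to 23.7 at the second position, against 16.9 to 19.5 at the first. Of 9 markers of T cells and dendritic cells, Cd4, Siglech and Zbtb46 were above background on all arrays, with a sum of 4.15 to 5.90 over the list on PNP arrays, against 3.16 to 3.36 on untreated arrays, while Cd3g, Cd8a, Itgax, Flt3 and Xcr1 were on none. The part of these sums in the members' values was not tested. In RNA from whole cultures, fewer cells of a kind and less RNA per cell cannot be told apart.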

How the data were processed

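Per the file headers, the deposited files were Agilent Feature Extraction 11.5.1.1 output (10.7 per the submitters' processing notes) of single-colour arrays with 62976 spots, 3671 of them controls, laid out for mouse build mm9. The deposited processed signal is an intensity that the software had background-subtracted. Position was read from the slide barcode in the headers; all arrays were scanned on 1 day. The authors' deposited log2 value table, used as an alternative, had a median of 4.745 in every column and correlated with the processed signals at 0.998 or more.

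Spots of a probe that were not outliers were averaged on the log2 scale and the array's 75th percentile subtracted. A probe was tested if well above background on all 3 arrays of a group (28208 probes), and the brightest probe stood for a gene (21479 units). Names came from accessions through RefSeq (GRCm38.p6; 33767 of 56605 probes). limma 3.58.1 in R 4.3.3 fitted treatment, or treatment and position, over all units, with Benjamini-Hochberg adjustment at 0.05. The fit was tested on simulated data of 21479 units: a treatment difference of 0.5 on the log2 scale was recovered for 0.4% of changed units, one of 1 for 47.2% and one of 2 for 98.8%, and position differences of 0.5 and 1 for 0.6% and 30.6%.

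The genes and lists were chosen with earlier results of these data known. Values on each array were given for the largest differences in each class, members without overlap between groups, members whose probes disagreed by over 0.5, transcription factors and sensors. Isg15, Ifit2, Oasl2, Xaf1, Cmpk2, Gbp2, Irgm1, H2-K1 and the effectors named without values were added after their values were seen. Alternatives were 5 other scalings, filters on dim probes, probe rules, variance models, slide, position and replicate blocks, and leaving out each array. Replicate numbers were not taken as pairs in the reported fit. Same-numbered arrays deviated with correlations of -0.41, -0.55 and -0.41. Each such pair stood at opposite positions, so these correlations cannot show whether the samples were paired. A result that needs an item withheld for evaluation is not reported here.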

Additional observations from a re-analysis of the deposited data

How the results depend on the processing

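With every probe as its own unit, the dimmer probes of Rsad2 and Adar passed between positions, at 1.71 and -1.31, against -0.80 and 0.23 by the probes that stood for these genes. For PNP against untreated, 0 members passed in the reported fit and in the alternatives other than array weights, where 1 did (Ifit1), as did 3 of the other pathway genes. Array weights called 966 units higher and 399 lower over the array, and position as a block with normexp, added after seeing the data, 90 higher and 3 lower, against 0 in the reported fit. The replicate block left 0 members called, with a median log2 difference of 0.14 and 1 member higher at an unadjusted p under 0.05. The members' median ran from -0.031 within the second position to 0.33 with slide as a fixed block, and from -0.013 to 0.25 when 1 array was left out. That slide-block value comes from slide 2 alone, PNP replicate 1 minus untreated replicate 3, where treatment and position cannot be told apart. Between positions, the 2 members called became 6 with a robust variance trend, 14 with array weights, 9 with slide as a fixed block, 11 with slide as a random block, 4 of the probes when every probe was its own unit, 1 without a treatment term, 1 with the median of a gene's probes, and 0 with no filter on dim probes. Within untreated arrays and within PNP arrays, both added after seeing the data, 0 passed. Leaving out 1 array gave 0 to 3. Without untreated replicate 2 the fit is the one within PNP arrays, and without PNP replicate 2 the one within untreated arrays. Each of these estimates position in 1 group only. The called counts moved over the whole array too, where 239 of 21479 units were higher and 327 lower in the reported fit. These became 0 with no filter, 591 and 582 with normexp, 352 and 347 with median centring, and 361 and 414 with quantile normalization. The stricter filter gave 402 and 498, the robust trend 695 and 697, and array weights 2505 and 2504. Slide as a fixed block gave 1276 and 1546, slide as a random block 1537 and 1449, and no treatment term 175 and 282. The median of a gene's probes gave 260 and 361, and every probe as its own unit 438 and 541 of 28208. Leaving out untreated replicate 1, 2 or 3 or PNP replicate 2 gave 0, PNP replicate 3 gave 16 and 34, and PNP replicate 1 gave 484 and 585. The cause was not tested. The members nearest background limit what the arrays can show: the treatment difference of Gbp7 ran from 0.099 to 0.69 over the scalings.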
